A study of Mus musculus with 10 samples.

Results

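The genes described here are 50 genes of DNA replication and mitosis, taken by symbol from a count table of 23056 gene symbols. The first 25 (replication genes) prepare, carry out or control DNA synthesis, and the other 25 (mitosis genes) condense, align and separate the chromosomes. All 50 were in the table. Their messenger RNA was measured by bulk RNA sequencing of mouse liver 12 hours after partial hepatectomy, an operation that removes the median and left lateral lobes under isoflurane. The groups were 4 livers labelled IFRD1-KO (KO), from mice in which Ifrd1, encoding a transcriptional co-regulator, was knocked out, and 6 livers from wild-type mice (WT). Both groups had the operation, and no unoperated liver was analysed here. The labels give neither strain, sex and age nor the cells in which the gene was knocked out. The stated purpose was to learn the role of Ifrd1 in liver regeneration.

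As background, a hepatocyte that leaves quiescence after hepatectomy passes through G1 before it copies its DNA, and in mice most hepatocytes reach S phase later than the time sampled here. In G1 the E2F factors switch on the genes of S phase. ORC, CDC6 and CDT1 load the MCM2-7 helicase on origins, and MCM10 and GINS help turn it into an active fork. The mitosis genes, which FOXM1 and the MYB and DREAM complexes control, follow in G2 and M, and resting liver holds little of their transcripts.

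Library totals lay between 12675838 and 17098012 counts in KO and between 12307446 and 14340623 in WT, so 1 count was worth 0.0551 to 0.0862 CPM, the count scaled to the library total. Ifrd1 itself was at 13.0 to 22.5 CPM in KO and 40.2 to 81.6 CPM in WT (log2 fold change -1.59, edgeR quasi-likelihood test, Benjamini-Hochberg adjusted p = 0.0258), and it passed in 4 of the 10 fits that left out 1 library. Hepatocyte markers summed to between 61190 and 70690 CPM in KO and between 46217 and 96638 CPM in WT. WT replicate 4 stood apart from its group. On the first principal component (48.6% of variance) it lay at -40.1, beside the KO libraries at -46.8 to -42.2, while the other WT libraries lay at 11.8 to 79.3. Results are therefore given with and without it where it changes them. It was singled out in these same data because it lay beside KO, so leaving it out favours larger differences between the groups. The p-values without it are a description and not separate evidence for a difference. Of 13688 genes tested, 182 passed at an adjusted p under 0.05 in edgeR (1.33%).

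Most of the 50 genes were present at low levels in both groups, and the mitosis genes lower than the replication genes. As reads per kilobase of exon in CPM units (RPKM), the median over the 25 replication genes was 0.554 in KO and 0.578 in WT, and over the 25 mitosis genes 0.0783 in KO and 0.0987 in WT. Pcna, the sliding clamp of the DNA polymerases, had the highest level, with 5.83 ± 1.48 RPKM in KO and 7.03 ± 1.72 in WT (SD, n = 4 and n = 6). Mcm7, a helicase subunit, followed in WT with 2.81 ± 0.158 RPKM in KO and 2.80 ± 0.805 in WT. In KO, Mcm10 stood between them at 2.88 ± 0.895 RPKM, against 1.23 ± 0.987 in WT. Among the mitosis genes the highest in WT was Ccna2, encoding the S and M phase cyclin A2, at 0.467 ± 0.107 RPKM in KO and 0.485 ± 0.123 in WT. At the other end, the fewest counts over all libraries were those of Ttk, a spindle checkpoint kinase, with 1 in KO and 5 in WT. Bub1, another, had 5 in KO and 2 in WT. In RPKM averaged over both groups Cenpf was lowest, at 0.00415 in KO and 0.00912 in WT. Mcm7 and the next gene in WT, E2f3 (2.03 ± 0.283 RPKM in KO, 2.60 ± 0.499 in WT), lay within each other's spread in WT, while Pcna stood above both.

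**Figure D1:**
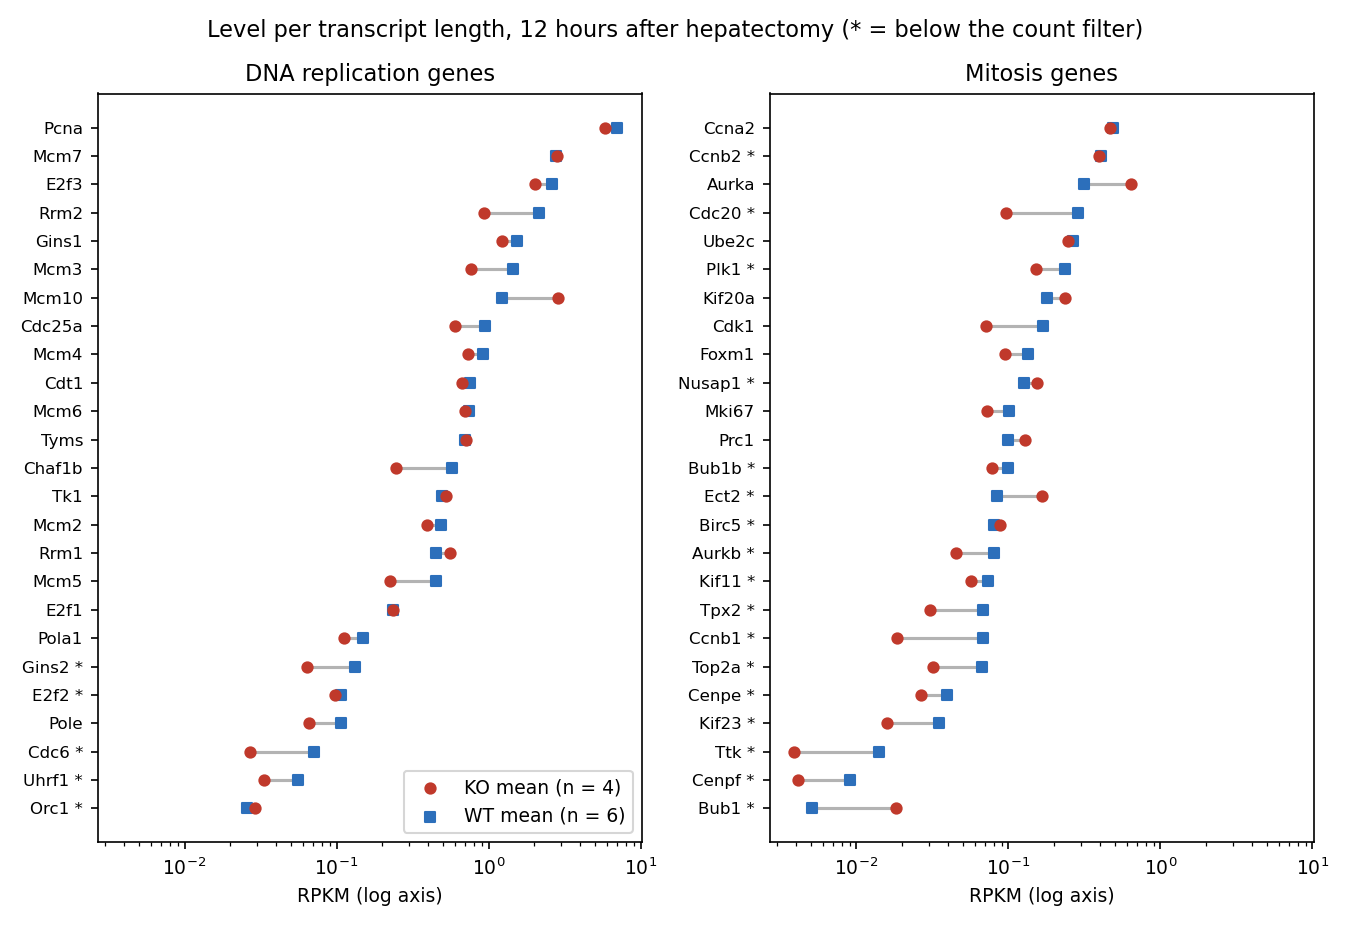
Mean level per exon length (RPKM, log axis) of the 25 replication genes (left) and the 25 mitosis genes (right), as red circles for KO (n = 4) and blue squares for WT (n = 6), ordered by the WT mean, without error bars. Pcna is highest in both groups, and genes with a star had too few counts for the test.

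A filter on low counts kept 28 of the 50 genes for the test: 20 of the 25 replication genes and 8 of the 25 mitosis genes. The other 22 had between 6 and 90 counts summed over the 10 libraries. They include Cdc6, Orc1 and Uhrf1 of the S phase set, with 8, 7 and 8 counts in KO and 31, 7 and 18 counts in WT. Among mitosis genes they include Ccnb1, the main mitotic cyclin (5 counts in KO, 22 in WT), Top2a, the topoisomerase that untangles sister chromatids (17 in KO, 49 in WT), and Plk1, a mitotic kinase (19 in KO, 41 in WT). The KO group has 4 libraries and the WT group 6, so these sums compare as shares of the total only. The rest were E2f2, Gins2, Ccnb2, Aurkb, Bub1, Bub1b, Cdc20, Birc5, Kif11, Kif23, Cenpe, Cenpf, Nusap1, Tpx2, Ect2 and Ttk. Annotated pseudogenes of Ccnb1 and Ccnb2 could share the reads of these genes. Exons of Cdc20 overlap those of Elovl1 on the other strand for 2.84% of the Cdc20 bases. With no filter, where all 50 could be fitted, none passed in edgeR (smallest adjusted p 0.128; 1.01% of 23034 genes passed), and 9 had an unadjusted p under 0.05 (19.2% of all genes). Among those 9 were Cdc20, an activator of the anaphase-promoting complex, with 10 counts in KO and 44 in WT, and Ect2, a cytokinesis exchange factor, with 53 counts in KO and 37 in WT.

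Promoter sequence is shown because the replication and mitosis genes are known to be switched on through different elements. RefSeq windows from 250 bases before to 50 bases after the transcription start (build GRCm38.p6) were at hand for 41 of the 50 genes, in 47 windows. Those not matched were Mcm4, Gins1, Gins2, Pole, Ccna2, Aurkb, Foxm1, Kif20a and Tpx2. The elements of cell cycle promoters searched on both strands were the core of an E2F site (TTCCCGC or TTGGCGC), the cell cycle homology region or CHR (TTTGAA or TTCGAA), and the CCAAT box bound by NF-Y. An E2F core was in 14 of 25 replication windows (56%), 5 of 22 mitosis windows (22.7%) and 6.81% of all 32851 windows of this length. A CHR was in 4 replication windows (16%), 18 mitosis windows (81.8%) and 19.2% of all windows. A CCAAT box was in 18 replication windows (72%), 20 mitosis windows (90.9%) and 37.4% of all windows. A match is a string of letters and does not show that a factor binds there. The windows of the 2 tested genes with the smallest p in each set show these elements in place, 5′ to 3′ on the gene's strand, with the matched letters in capitals.
Mcm3: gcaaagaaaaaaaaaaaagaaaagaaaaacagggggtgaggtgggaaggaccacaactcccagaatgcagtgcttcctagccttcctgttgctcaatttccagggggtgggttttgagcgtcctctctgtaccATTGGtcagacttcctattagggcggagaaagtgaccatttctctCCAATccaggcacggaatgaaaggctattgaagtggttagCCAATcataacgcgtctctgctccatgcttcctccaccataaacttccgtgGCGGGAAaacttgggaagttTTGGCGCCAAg
Rrm2: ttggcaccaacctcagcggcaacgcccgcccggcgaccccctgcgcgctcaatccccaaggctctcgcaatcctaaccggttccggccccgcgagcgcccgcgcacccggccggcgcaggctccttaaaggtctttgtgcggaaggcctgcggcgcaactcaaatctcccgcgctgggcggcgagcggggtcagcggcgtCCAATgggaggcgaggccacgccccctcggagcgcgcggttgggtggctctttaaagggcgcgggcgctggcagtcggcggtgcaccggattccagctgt
Aurka: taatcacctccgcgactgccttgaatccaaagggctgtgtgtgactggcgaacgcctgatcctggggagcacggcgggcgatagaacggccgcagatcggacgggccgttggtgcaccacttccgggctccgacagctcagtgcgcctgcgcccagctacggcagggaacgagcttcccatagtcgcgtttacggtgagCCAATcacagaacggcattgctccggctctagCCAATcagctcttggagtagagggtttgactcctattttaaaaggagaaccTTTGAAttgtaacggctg
Cdk1: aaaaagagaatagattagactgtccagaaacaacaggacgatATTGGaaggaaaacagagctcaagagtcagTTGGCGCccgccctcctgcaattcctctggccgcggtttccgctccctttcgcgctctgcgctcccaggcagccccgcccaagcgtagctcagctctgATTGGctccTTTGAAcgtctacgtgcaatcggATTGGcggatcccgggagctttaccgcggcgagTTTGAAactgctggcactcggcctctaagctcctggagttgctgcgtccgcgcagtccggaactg
These lie at chr1:20820263-20820562 (minus strand), chr12:24708004-24708303 (plus), chr2:172370521-172370820 (minus) and chr10:69352863-69353162 (minus). Mcm3, a subunit of the MCM2-7 helicase, had 3 E2F cores, of which 2 overlap on opposite strands downstream of the start, and 3 CCAAT boxes. Rrm2, the small subunit of ribonucleotide reductase, had 1 CCAAT box and no E2F core or CHR in these letters. Aurka, the centrosome kinase, had 2 CCAAT boxes and 1 CHR. Cdk1, the mitotic kinase, had 3 CCAAT boxes, 2 CHR and 1 E2F core.

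Between the genotypes, no gene of the 28 passed the test over all genes, and the largest differences ran in both directions. In edgeR 0 of 28 passed, where 1.33% of all genes did, and the smallest adjusted p was 0.102. At an unadjusted p under 0.05 there were 7 of 28 (25%, against 26% of all genes): Mcm3, Rrm2, Chaf1b, Cdk1 and Cdc25a were lower in KO (14.4% of all genes were), and Mcm10 and Aurka higher (11.6% of all genes were). DESeq2 called 2 of 28, Mcm3 and Rrm2, both lower (7.14%, against 11.8% of all genes). Limma-voom called 0 of 28 (2.32% of all genes passed), with 4 at an unadjusted p under 0.05 (26.7% of all genes), and limma-voom with sample weights called 3, Mcm3, Rrm2 and Mcm10 (10.7%, against 19.2%). Without WT replicate 4 edgeR called 5 of 25 (20%, against 21.4% of all genes): Mcm3, Rrm2, Chaf1b and Cdc25a, lower in KO, and Mcm10, higher. In each fit the share of these genes called was near or below that of all genes. Of the 28 log2 fold changes 19 were below 0 (67.9%, against 51.6% of all genes), with a median of -0.28 beside -0.02 over all genes tested. None of the 28 had groups that did not overlap, against 6.89% of all genes tested. In bulk tissue, fewer cells that express a gene and less RNA per cell cannot be told apart.

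**Figure D2:**
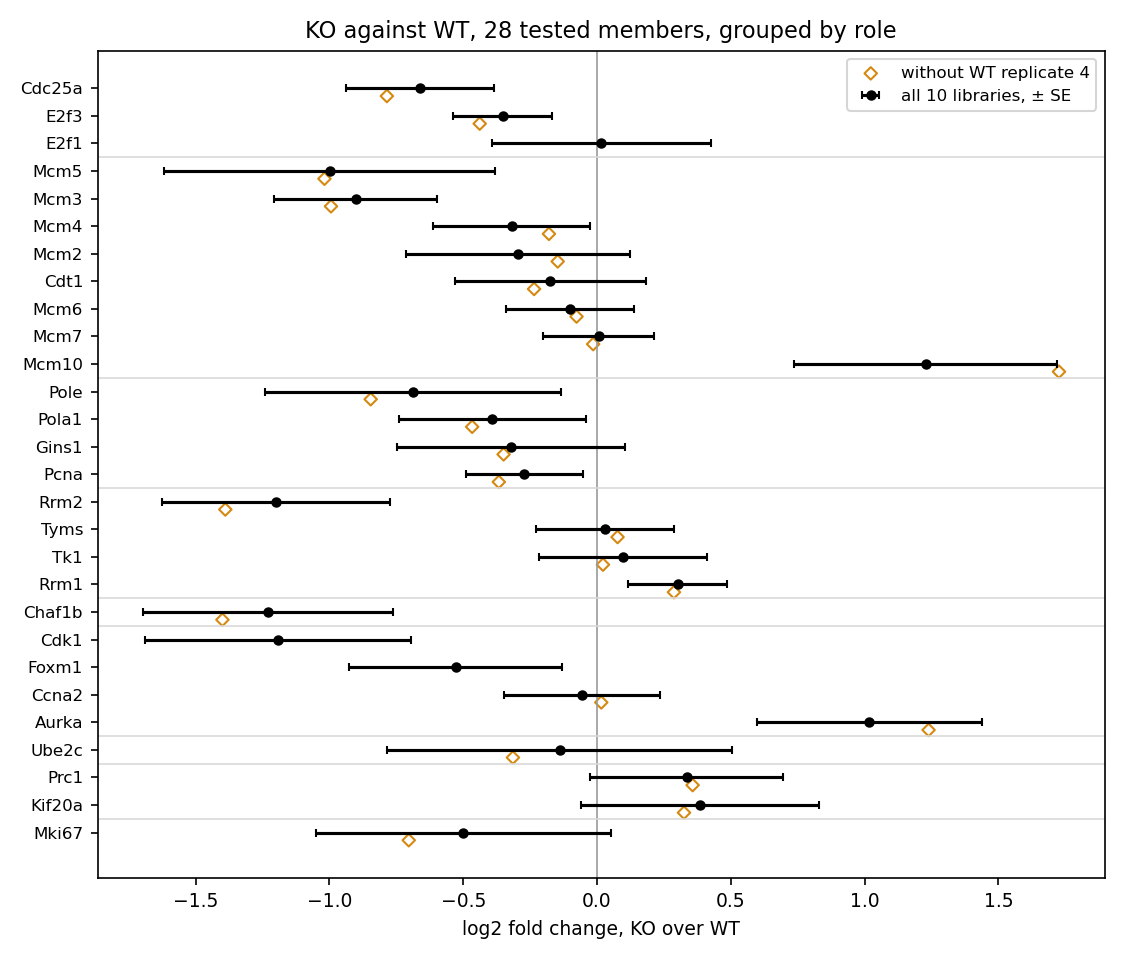
Log2 fold change of KO over WT for the 28 tested genes (black, ± SE, all 10 libraries) and the value without WT replicate 4 (orange diamonds; E2f1, Cdk1 and Foxm1 fall below the count filter there), in blocks by role from the E2F factors at the top to Mki67 at the bottom. Mcm10 and Aurka lie farthest to the right, and Chaf1b, Rrm2 and Cdk1 farthest to the left.

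Among the factors that open S phase, Cdc25a encodes the phosphatase that activates cyclin-dependent kinases at the G1/S boundary (chromosome 9, 109875579 to 109893895, plus strand). It was at 5.67, 6.15, 3.22 and 4.22 CPM in the KO libraries, against a lowest value of 4.21, a median of 7.64 and a highest value of 11.5 CPM in WT. The lowest WT value was replicate 4, and the other WT libraries all lay above the KO libraries. The log2 fold change was -0.66 (SE 0.28; edgeR adjusted p = 0.158, and 0.0362 without WT replicate 4).

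E2f3, an activating E2F, was at 11.9, 8.77, 11.4 and 12.0 CPM in KO and 9.72 to 17.3 CPM in WT, with a WT median of 14.9 CPM. WT replicate 4 was again the lowest of its group and lay inside the KO range. The fitted difference on the log2 scale was -0.35 (SE 0.18, edgeR adjusted p = 0.247). E2f1, another E2F factor, was at 0.826, 0.692, 0.384 and 1.06 CPM in KO. In WT its range was 0.431 to 1.24 CPM and its median 0.602 CPM. The groups lay on top of each other (log2 fold change 0.02, SE 0.41, edgeR adjusted p = 0.986).

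Among the genes grouped here as origin licensing, Mcm3 was lower in KO, and Mcm10, which acts after the helicase is loaded, was higher. Mcm3 (chromosome 1, 20802968 to 20820312, minus strand) was at 3.30, 1.85, 2.69 and 3.73 CPM in KO, against a lowest value of 3.36, a median of 5.36 and a highest value of 7.77 CPM in WT. WT replicates 3 and 4 lay among the KO libraries and the other 4 WT libraries above them. It had a log2 fold change of -0.90 (SE 0.30; edgeR adjusted p = 0.102, the smallest of the 28, and 0.0327 without WT replicate 4).

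Mcm10, a scaffold that joins the helicase to DNA polymerase alpha (chromosome 2, 4989714 to 5012791, minus strand), ran the other way. It was at 16.9, 17.2, 23.2 and 31.5 CPM in KO, against a lowest value of 3.43, a median of 6.69 and a highest value of 23.0 CPM in WT. The highest WT value was replicate 4, inside the KO range, and the next was replicate 6 at 13.2 CPM, below every KO library. The log2 fold change was 1.23 (SE 0.49, edgeR adjusted p = 0.147) with all libraries and 1.73 (adjusted p = 0.00961) without WT replicate 4. No exon of another annotated gene overlaps its exons, and it took 21.8% of the counts of the replication genes in KO and 8.87% in WT.

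Mcm5, another helicase subunit, was at 0.881, 0.615, 1.07 and 0.994 CPM in KO and 0.229 to 4.86 CPM in WT, around a WT median of 1.54 CPM. WT replicate 6 set the top of that range, and without it the log2 fold change was -0.41 in place of -1.0 (SE 0.62, edgeR adjusted p = 0.324). The remaining licensing genes tested, Mcm2, Mcm4, Mcm6, Mcm7 and Cdt1, had log2 fold changes from -0.32 to 0.01. The 6 subunits of the MCM2-7 ring together were at 24.8 ± 2.97 CPM in KO (n = 4) and 29.8 ± 6.58 CPM in WT (n = 6). Exons of Mcm7 overlap those of Cops6 and Ap4m1 on the other strand, and since the strand setting of the counts is not given, some of its reads cannot be assigned with certainty.

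**Figure D3:**
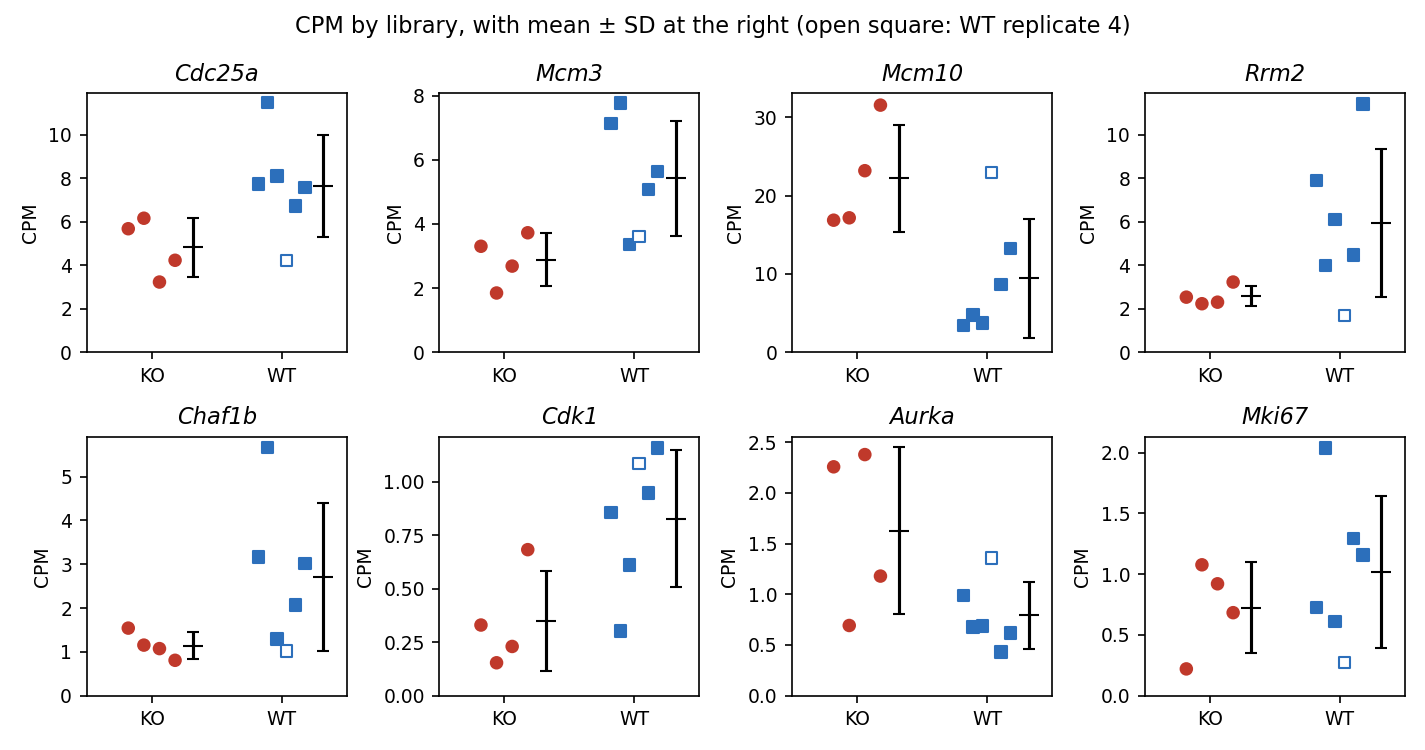
CPM in each library for 8 genes, KO as red circles (n = 4) left of WT as blue squares (n = 6, WT replicate 4 open), with the mean ± SD of each group beside the points. For Cdc25a, Mcm10 and Rrm2 the open square lies on the KO side and the remaining WT libraries do not overlap KO.

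In the group of replication fork genes, which leaves out Mcm10, all 4 tested had fold changes below 0 and none was near the threshold. Pcna was at 13.5, 19.2, 11.4 and 11.9 CPM in KO and 11.1 to 22.9 CPM in WT, with a WT median of 16.1 CPM (log2 fold change -0.27, SE 0.22, edgeR adjusted p = 0.449). Processed copies annotated as Pcna-ps1 and Pcna-ps2 could share its reads. Pole, the catalytic subunit of the leading strand polymerase, was at 0.606, 0.846, 0.537 and 0.931 CPM in KO and 0.476 to 3.16 CPM in WT, with a WT median of 0.750 CPM. As for Mcm5, WT replicate 6 held the highest value, and the log2 fold change was -0.69 with it (SE 0.55, edgeR adjusted p = 0.451) and -0.11 without it. Pola1, the primase-bound polymerase, was at 0.936, 0.462, 1.46 and 1.12 CPM in KO and 0.951 to 1.68 CPM in WT, with a WT median of 1.35 CPM (log2 fold change -0.39, edgeR adjusted p = 0.499). Gins1, a helicase cofactor, was at 1.84 ± 0.727 CPM in KO and 2.32 ± 1.29 CPM in WT. Of Gins2, 67.3% of the exon bases are shared with Gse1 on the other strand, so its few counts are uncertain.

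The deoxynucleotide genes differed from each other. Rrm2 (chromosome 12, 24708241 to 24714146, plus strand), the subunit of ribonucleotide reductase that cells make for S phase, was at 2.53, 2.23, 2.30 and 3.23 CPM in KO, against a lowest value of 1.70, a median of 5.29 and a highest value of 11.4 CPM in WT. The KO libraries lay close together. WT replicate 4 lay below all of them and the other 5 WT libraries above. The log2 fold change was -1.20 (SE 0.43; edgeR adjusted p = 0.113, and 0.0105 without WT replicate 4). Rrm1, the large subunit of the same enzyme, was at 6.61, 5.85, 4.91 and 7.02 CPM in KO and 4.20 to 5.54 CPM in WT, with a WT median of 4.96 CPM (log2 fold change 0.30, SE 0.18, edgeR adjusted p = 0.319). Tk1, the thymidine salvage kinase, was at 2.31, 3.23, 2.76 and 2.67 CPM in KO and 1.76 to 4.76 CPM in WT, with a WT median of 2.17 CPM (log2 fold change 0.10, edgeR adjusted p = 0.877). Tyms, thymidylate synthase, had a log2 fold change of 0.03, and an annotated pseudogene could share its reads.

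Chaf1b, a subunit of the chaperone that places histones on new DNA (chromosome 16, 93883901 to 93906115, plus strand), was at 1.54, 1.15, 1.07 and 0.807 CPM in KO, against a lowest value of 1.02, a median of 2.54 and a highest value of 5.66 CPM in WT. WT replicates 3 and 4 lay in the KO range, and the highest value was WT replicate 2. It had the most negative log2 fold change of the 28, -1.23 (SE 0.47; edgeR adjusted p = 0.131, and 0.0318 without WT replicate 4).

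The mitosis genes that could be tested rested on few reads, and Aurka and Cdk1 differed most. Aurka (chromosome 2, 172356190 to 172370535, minus strand) was at 2.26, 0.692, 2.38 and 1.18 CPM in KO, against a lowest value of 0.431, a median of 0.683 and a highest value of 1.36 CPM in WT. KO replicates 1 and 3 lay above every WT library, while KO replicate 2 lay at the WT median. KO over WT gave a log2 fold change of 1.02 (SE 0.42, edgeR adjusted p = 0.152). Cdk1 (chromosome 10, 69335146 to 69352938, minus strand) was at 0.330, 0.154, 0.230 and 0.683 CPM in KO, which is 6, 2, 3 and 11 reads, against a lowest value of 0.302, a median of 0.903 and a highest value of 1.16 CPM in WT. Here WT replicate 4 was among the high WT libraries, at 1.09 CPM. KO over WT gave a log2 fold change of -1.19 (SE 0.50, edgeR adjusted p = 0.158).

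Foxm1, the transcription factor of G2/M genes, was at 0.330, 0.846, 0.691 and 0.310 CPM in KO and 0.528 to 1.00 CPM in WT, with a WT median of 0.761 CPM (log2 fold change -0.53, SE 0.40, edgeR adjusted p = 0.418). Mki67, the chromosome surface protein Ki-67, was at 0.220, 1.08, 0.921 and 0.683 CPM in KO and 0.272 to 2.04 CPM in WT, with a WT median of 0.942 CPM. KO replicate 1 and WT replicate 4 were the lowest and WT replicate 2 the highest. The log2 fold change was -0.50 (SE 0.55, edgeR adjusted p = 0.594). Ube2c, a ubiquitin-conjugating enzyme of the anaphase-promoting complex, was at 0.165, 1.08, 0.460 and 0.869 CPM in KO and 0.232 to 1.60 CPM in WT, with a WT median of 0.404 CPM (log2 fold change -0.14, SE 0.64, edgeR adjusted p = 0.914). Prc1, which bundles the microtubules of the spindle midzone, was at 0.606, 1.62, 1.23 and 0.745 CPM in KO and 0.594 to 1.08 CPM in WT, with a WT median of 0.835 CPM (log2 fold change 0.34, edgeR adjusted p = 0.582). Kif20a, a kinesin of cytokinesis, was at 1.32, 1.31, 1.07 and 0.373 CPM in KO and 0.305 to 1.08 CPM in WT, with a WT median of 0.823 CPM (log2 fold change 0.39, edgeR adjusted p = 0.610). Ccna2 had a log2 fold change of -0.06. Exons of Kif20a, Ube2c, Ccna2 and Prc1 overlap those of genes on the other strand for 29.3%, 22.8%, 12.5% and 11.1% of their bases, so their counts are uncertain.

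Summing the counts gave each library a deeper value, and the sums differed between genotypes by less than the spread within either group. The 25 replication genes summed to 97.9, 96.6, 94.4 and 116 CPM in KO, against a lowest value of 86.0, a median of 105 and a highest value of 134 CPM in WT. The means were 101 ± 10.03 CPM in KO and 108 ± 16.2 CPM in WT, a log2 ratio of -0.09. All KO values lay inside the WT range. The 25 mitosis genes summed to 10.6, 13.2, 15.1 and 11.9 CPM in KO, against a lowest value of 11.5, a median of 13.8 and a highest value of 16.6 CPM in WT. Their means were 12.7 ± 1.92 CPM in KO and 13.9 ± 1.85 CPM in WT, a log2 ratio of -0.13. These mitosis sums rest on 172 to 197 reads per library in KO and 151 to 220 in WT. The Poisson 95% interval covers counting error only. In KO it was 9.18 to 12.2 CPM for the lowest library and 13.1 to 17.4 CPM for the highest. In WT it was 9.76 to 13.5 CPM for the lowest library and 14.5 to 19.0 CPM for the highest.

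Mcm10 weighed on the replication sum. Without it, a choice made after its values were seen, the other 24 replication genes summed to 79.1 ± 5.65 CPM in KO and 98.5 ± 16.7 CPM in WT, a log2 ratio of -0.32. The KO libraries then lay between 71.3 and 84.6 CPM. WT replicates 3 and 4, at 82.3 and 77.9 CPM, were inside that range and the other WT libraries, from 94.5 to 121 CPM, above it.

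**Figure D4:**
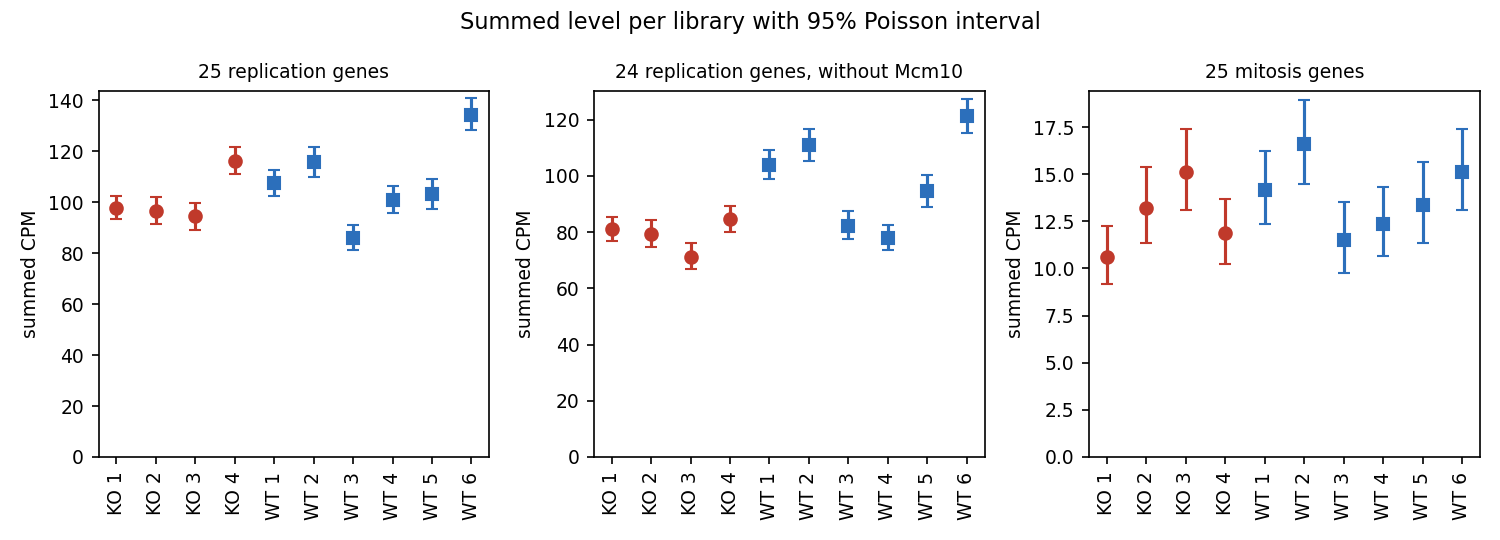
Summed CPM per library of the 25 replication genes, of the 24 without Mcm10 and of the 25 mitosis genes, KO (red circles) left of WT (blue squares), with exact Poisson 95% intervals that cover counting error only. WT replicate 6 is highest in the replication sums and WT replicate 2 in the mitosis sum.

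WT replicates 6 and 2 held the highest value of more of these genes than any other library did. Of the 50 genes, 12 were highest in WT replicate 6 and 10 in WT replicate 2, against 2 to 5 in each KO library and 2 to 5 in each other WT library. WT replicate 3 held the lowest value of 11 of the 44 genes with a single lowest library, and WT replicate 4 of 8. Among the 28 tested genes, the SD of log2(CPM + 0.5) was larger in WT than in KO for 20 (71.4%, against 80.4% of all genes tested). For 18 of 28, WT replicate 4 was closer to the KO average than to the average of the 5 remaining WT livers (64.3%, against 69.9% of all genes tested). Without that library the KO and WT values no longer overlapped for 4 of 28, Cdc25a, E2f3, Mcm10 and Rrm2 (14.3%, against 22.2% of all genes tested).

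**Figure D5:**
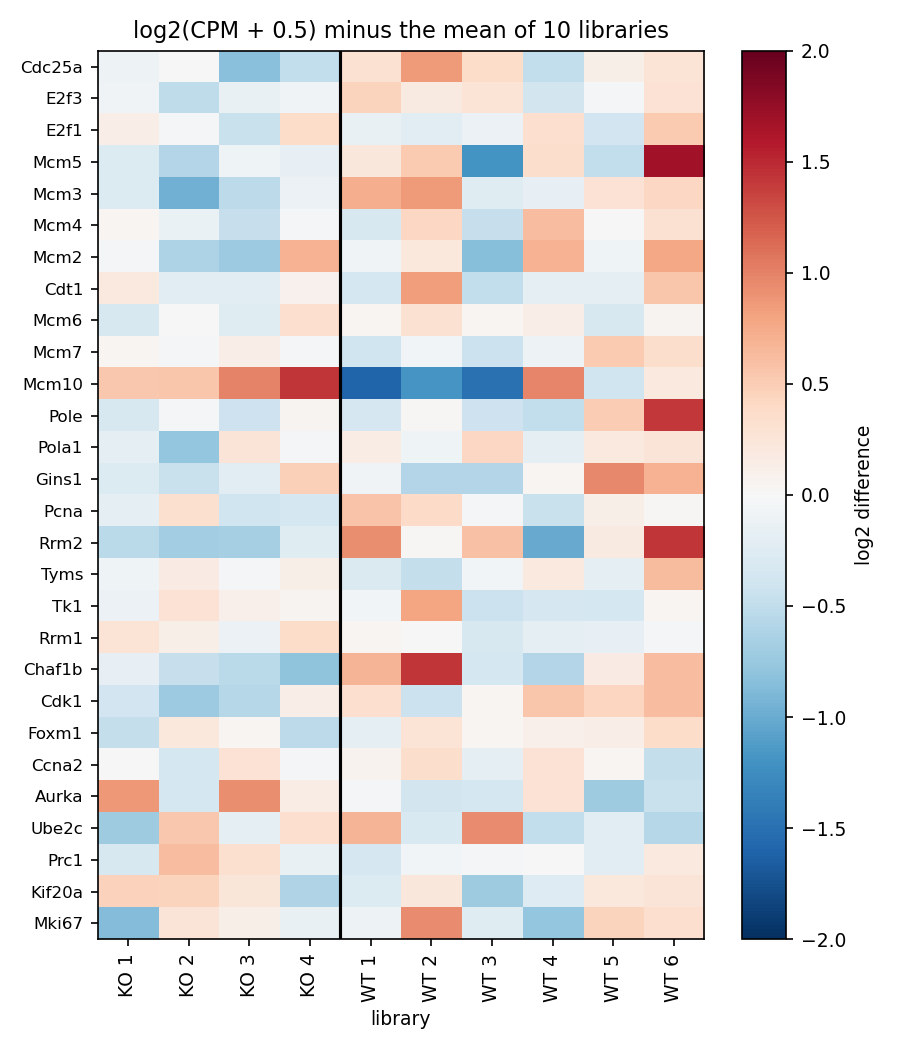
Log2(CPM + 0.5) of the 28 tested genes in each library minus the mean of the 10 libraries (red higher, blue lower; color scale from -2 to 2), KO left of the line and WT right of it. The row of Mcm10 is reddest in the 4 KO libraries and WT replicate 4, and WT replicate 6 is red for Mcm5, Pole and Rrm2.

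Cells other than hepatocytes also divide, and the library with the highest marker level differed by cell type. WT replicate 2, highest in the mitosis sum, was highest for the hepatocyte markers (96638 CPM) and for 3 immune lists. WT replicate 6, highest in the replication sum, was highest for none of the 8 marker lists. It was second highest for Kupffer cell and macrophage markers (212 CPM) and for endothelial markers (303 CPM). The first immune list held 11 markers of Kupffer cells and macrophages, which summed to 53.9 to 102 CPM in KO, against 429 CPM in WT replicate 2 and at most 212 CPM in each of the 5 remaining WT livers, where the lowest was 69.3 CPM. All 11 had a count in every library and a fold change below 0, with a median log2 fold change of -1.07. In edgeR 0 of the 11 passed, and 7 were lower in KO at an unadjusted p under 0.05, where 14.4% of all genes were. Without WT replicate 4, 4 of the 11 passed (36.4%, against 21.4% of all genes). In WT replicate 2 the 10 monocyte and neutrophil markers summed to 179 CPM, against 9.21 to 18.6 CPM in KO and 12.8 to 40.6 CPM in the 5 remaining WT livers, with Ly6c2, Ly6g, Mpo and Elane at 0 in at least 1 library. There the 10 lymphocyte and plasma cell markers summed to 37.0 CPM, against 2.07 to 4.15 CPM in KO and 1.78 to 4.21 CPM in those 5 WT livers, and 5 of the 10 had a count in every library, while Cd2, Cd79a, Ms4a1 and Mzb1 were among those at 0 in at least 1. Of 9 erythroid markers 8 had a count in every library, and the 9 summed to 195 to 429 CPM in KO, where KO replicate 2 was highest, and 166 to 379 CPM in WT. Endothelial and stellate markers (10 each, all with a count in every library) summed to 165 to 271 and 177 to 213 CPM in KO, against 154 to 315 and 135 to 263 CPM in WT, both highest in WT replicate 5. Bile duct markers, 7 of 8 with a count in every library and Cftr at 0 in at least 1, summed to 70.2 to 92.8 CPM in KO and 45.9 to 298 CPM in WT, where WT replicate 1 was highest. The part of these cells in the replication and mitosis values was not tested. Without WT replicate 2 the log2 ratio of the mitosis sum was -0.07 and the log2 fold change of Mki67 -0.18. They were -0.05 and -0.18 without KO replicate 1, whose Kupffer cell sum was the lowest. WT replicate 2 also held the highest mitosis sum and Mki67 value, and KO replicate 1 the lowest of both. Leaving out either library therefore narrows both differences whatever its marker level, so these fits cannot show a part of the other cells.

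The other genes of replication and mitosis gave few calls too. Of 193 genes in 7 lists, 191 were in the table and 129 were tested, and 3 fell and 0 rose in KO in edgeR (2.33%, against 1.33% of all genes). At an unadjusted p under 0.05, 23 of 129 were lower and 13 higher, where 14.4% and 11.6% of all genes were. Fold changes were below 0 for 66 of 129, with a median of -0.03, beside 51.6% and a median of -0.02 over all genes tested. Ctps, CTP synthase, fell to 12.0 ± 3.34 CPM in KO, against 26.2 ± 6.73 CPM in WT (log2 fold change -1.13, edgeR adjusted p = 0.0495). Mybl1, a MYB family transcription factor, fell to 1.72 ± 0.455 CPM in KO, against 10.7 ± 8.33 CPM in WT (log2 fold change -2.64, edgeR adjusted p = 0.0495). Arhgap11a, a regulator of cytokinesis, fell to 0.726 ± 0.176 CPM in KO, against 2.39 ± 0.905 CPM in WT (log2 fold change -1.72, edgeR adjusted p = 0.0477). KO and WT did not overlap for Arhgap11a, and overlapped for Ctps and Mybl1 through WT replicate 4, at 13.4 and 2.11 CPM. Leaving out any 1 library other than WT replicate 4 ended all 3 calls, with edgeR adjusted p up to 0.151, while 25 of 128 genes passed without WT replicate 4 (19.5%, against 21.4% of all genes).

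By list, 0 of 35 licensing and fork genes, 1 of 16 nucleotide and chromatin assembly genes (Ctps), 1 of 17 E2F, RB and DREAM genes (Mybl1), 0 of 15 mitotic kinase and checkpoint genes, 0 of 16 kinetochore genes, 1 of 12 spindle, condensin and cytokinesis genes (Arhgap11a) and 0 of 18 replication checkpoint and recombination genes passed in edgeR. In the same order, an unadjusted p under 0.05 was reached by 6, 4, 6, 3, 5, 5 and 7 of these genes, where 26% of all genes reached it. Without WT replicate 4 the calls were 6 of 35, 1 of 16, 3 of 17, 3 of 15, 4 of 15, 4 of 12 and 4 of 18, where 21.4% of all genes passed. In the 4 lists without a call the gene with the smallest p was Orc2, an origin recognition subunit, at 4.85 ± 0.300 CPM in KO and 10.1 ± 3.40 CPM in WT (edgeR adjusted p = 0.0596, and 0.00496 without WT replicate 4). The others were Cks1b, a subunit bound by cyclin-dependent kinases, at 7.32 ± 1.27 CPM in KO and 15.9 ± 7.32 CPM in WT (edgeR adjusted p = 0.0705, and 0.0158 without that library), and Cenpt, a kinetochore protein, at 6.63 ± 0.882 CPM in KO and 13.4 ± 6.18 CPM in WT (edgeR adjusted p = 0.0891, and 0.0204 without it). Rad17, the loader of the checkpoint clamp, was at 11.7 ± 0.856 CPM in KO and 18.1 ± 5.29 CPM in WT (edgeR adjusted p = 0.100, and 0.0294 without WT replicate 4).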

How the data were processed

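Poly(A) RNA of 10 livers was sequenced, 4 KO and 6 WT. The authors deposited unnormalized counts, 1 column for each liver and 1 row for each symbol. The tools named in the submitters' processing notes are STAR, HTSeq and DESeq2, and the build is mm10. None of the sources used here gives tool versions, the annotation or whether counting used strand. Every column was used. Each library was taken as a different mouse, which the labels do not state, so p-values measure the spread between libraries. Pairs of libraries within a group differed beyond sampling noise (chi-square per degree of freedom 23.2 to 189).

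Genotypes were compared in R 4.3.3 by the quasi-likelihood F test of edgeR 4.0.16, after TMM scaling and filterByExpr, with robust dispersion and no covariate, on 13688 genes that held 99.8% of counts, with Benjamini-Hochberg adjustment over all of them and a threshold of 0.05; the code was tested on simulated data. SE is the size of the log2 fold change over the square root of F. CPM uses TMM-adjusted totals, and RPKM divides it by the summed exon length of GENCODE M21 (GRCm38, the assembly of mm10), which held 96.6% of symbols. Sums, medians, RPKM and promoter matches are descriptions with no test. Genes given with every KO value and the WT range and median were, in each role, the 3 tested genes with the smallest p. List genes were those called or, with none, the 1 with the smallest p. Other settings tried were scaling by RLE or upper quartile, keeping every gene, keeping genes over 1 CPM in at least 4 livers, and a prior without robust estimation. Other tools were DESeq2 1.42.0 and limma-voom (limma 3.58.1), the second also with sample weights. Fits were repeated with the replicate number as block and without each liver in turn. Some marker genes are not reported here. Genes, lists and tests were chosen with earlier results of these data known.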

Additional observations from a re-analysis of the deposited data

Results flagged for a closer look

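In 94 groups of library values examined, 10 held a library far from the rest of its group, by a rule meant to flag about 1 in 20 independent groups by chance. These groups share the same libraries, and the sums hold genes that were also examined singly. No excess over chance can therefore be read from this count. Among the replication genes, KO replicate 4 was high in the sum of the 25 genes (116 CPM, next 97.9), WT replicate 6 was high in Mcm5 (4.86 CPM, next 1.89) and Pole (3.16 CPM, next 1.46), and WT replicate 2 was high in Tk1 (4.76 CPM, next 2.62). Of the genes in the lists, WT replicate 4 was low in Ctps (13.4 CPM, next 26.9), WT replicate 3 was high in Mybl1 (26.5 CPM, next 10.4), and KO replicate 2 was low in Rad17 (10.4 CPM, next 11.9). Of the marker sums, WT replicate 2 was high for monocytes and neutrophils (179 CPM, next 40.6) and for lymphocytes and plasma cells (37.0 CPM, next 4.21), and WT replicate 1 for bile duct cells (298 CPM, next 113).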

How the results depend on the processing

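The count of all genes called, 182 in edgeR, was 1618 in DESeq2, 318 in limma-voom, 2629 in limma-voom with sample weights, 1 with the replicate block, and from 0 (without KO replicates 1, 2 or 3) to 2893 (without WT replicate 4) when 1 library was left out. The count of replication and mitosis genes called, 0 of 28, was 2 in DESeq2, 3 in limma-voom with sample weights and 0 to 5 when 1 library was left out, where the 5 came without WT replicate 4 and the other 9 fits gave 0. The 3 list genes called were 1 with upper-quartile scaling, 11 in DESeq2, 1 in limma-voom, 25 with sample weights, 0 with the replicate block and 0 to 25 when 1 library was left out. Of the calls, 77 of 182 were higher in KO in edgeR and 231 of 318 in limma-voom. The causes were not tested. The labels do not say whether a shared replicate number marks a pair of libraries. Correlations of same-numbered deviations were 0.18, 0.07, -0.03 and -0.02, and of the KO libraries only replicates 1 and 2 correlated best with their own number. These few values cannot decide whether the libraries are paired.

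The median log2 fold change of the tested genes stayed between -0.34 and -0.17 in all fits. The log2 ratio of the sums kept its sign throughout, from -0.16 to -0.02 for replication and -0.22 to -0.05 for mitosis when 1 library was left out, and moved to -0.32 for replication without Mcm10, an alternative added after the data were seen. Over 517 pairs of a tested gene and an alternative fit, 481 kept direction and side of the threshold, 10 became calls and 26 changed sign, in 8 genes. Sign changes in log2 fold change were Cdt1 (0.055 with sample weights, 0.025 with the replicate block, -0.29 to 0.070 over left-out libraries), Mcm7 (-2.0e-05 with RLE scaling, -0.074 to 0.13 over left-out libraries), Gins1 (0.24) and Pole (0.23) with the replicate block, and Ccna2 (0.037 with sample weights, -0.19 to 0.068 over left-out libraries). Over left-out libraries E2f1 ran from -0.20 to 0.22, Tyms from -0.064 to 0.21 and Ube2c from -0.49 to 0.20. Depth limits the mitosis genes most, since 17 of 25 were below the count filter.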
